A study of Mus musculus with 21 samples.

Results

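Tubulin isotypes are the products of separate alpha- and beta-tubulin genes, and the 10 described here were Tuba1a, Tuba1b, Tuba1c, Tuba4a, Tubb2a, Tubb2b, Tubb3, Tubb4a, Tubb5 and Tubb6. They were chosen by gene symbol, matched through the Ensembl identifiers of the count table, and made up 10 of its 52550 genes. Their RNA was read in 21 bulk RNA-Seq libraries from C57BL/6 mice, 3 for each of 7 groups. Spiral ganglion neurons (SGNs), the primary auditory neurons of the cochlea, were picked by hand from embryos (E15.5) and from pups and young mice at postnatal days 1, 8, 14 and 30 (P1, P8, P14 and P30), with 69 to 195 cells in a library. They came from ShhCre/+ mice carrying 1 Rosa26-CAG-loxp-stop-loxp-tdTomato allele, in which a Cre driven by the Shh locus turns on the red reporter, so the group holds only neurons of that lineage. The reference populations were hair cells (HCs) at P12 and glia at P8. HCs carried the same reporter with Atoh1-CreER and received tamoxifen at P0 and P1. They were taken from the cochlear and vestibular organs together, about 1200 cells in a library, by sorting on a flow cytometer according to the methods and by hand according to the labels. Glia carried the reporter with vGlut3-iCreER and received tamoxifen at P2 and P3. They were picked from the ganglion area because the driver also labels inner hair cells, with 86 to 125 cells in a library.

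Microtubules are polymers of alpha- and beta-tubulin heterodimers, and they give axons their tracks for transport and their shape. Mammals carry several genes for each subunit. The encoded isotypes are nearly alike in the folded body and differ mostly in the acidic tail at the C terminus, which lies on the outside of the polymer and is bound by motors, associated proteins and modifying enzymes. In neurons, Tuba1a is known as the main alpha isotype of development, Tubb2b and Tubb5 are known for their part in cortical development, Tubb3 is the neuronal isotype seen by the Tuj1 antibody, and Tubb4a is an isotype of the nervous system.

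The tail is where most isotypes differ, so the last 60 coding bases, stop codon included, are printed for 7 of the members from the GENCODE M21 transcripts of the GRCm38 genome. Capitals mark the codons for the acidic residues aspartate and glutamate.
Tuba1c: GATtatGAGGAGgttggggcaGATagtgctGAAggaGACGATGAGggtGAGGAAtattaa
Tuba4a: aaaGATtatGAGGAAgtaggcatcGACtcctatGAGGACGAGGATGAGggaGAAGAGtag
Tubb2a: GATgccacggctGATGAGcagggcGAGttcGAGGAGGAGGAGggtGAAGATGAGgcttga
Tubb2b: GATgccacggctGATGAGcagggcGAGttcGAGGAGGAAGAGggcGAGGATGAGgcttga
Tubb3: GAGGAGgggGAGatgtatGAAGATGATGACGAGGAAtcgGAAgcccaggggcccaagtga
Tubb4a: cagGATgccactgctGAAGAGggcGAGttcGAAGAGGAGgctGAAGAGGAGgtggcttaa
Tubb5: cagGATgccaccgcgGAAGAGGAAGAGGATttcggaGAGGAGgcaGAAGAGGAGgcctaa
All 7 stretches lay in exon 4 of their transcripts. Among the alpha genes, that of Tuba1c was at chr15:99037950-99038009 on the plus strand and that of Tuba4a at chr1:75215622-75215681 on the minus strand. Among the beta genes, Tubb2a was at chr13:34074468-34074527 and Tubb2b at chr13:34127471-34127530, both on the minus strand, Tubb3 was at chr8:123421623-123421682 on the plus strand, and Tubb4a and Tubb5 were at chr17:57080690-57080749 and chr17:35834982-35835041 on the minus strand. Of the 19 sense codons in each stretch, 10 were acidic in Tuba1c, Tubb3 and Tubb4a, and 11 in Tuba4a, Tubb2a, Tubb2b and Tubb5. The stretches of Tubb2a and Tubb2b differed at 3 bases and encoded the same residues, which held for no other pair of the printed alpha or beta genes. The codon before the stop was a tyrosine codon in Tuba1c (tat) and a glutamate codon in Tuba4a (gag). The last tyrosine is the residue that vasohibins remove and that tubulin tyrosine ligase puts back.

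These similarities also bear on how well the reads can be assigned. The coding sequences of Tuba1a, Tuba1b and Tuba1c were 97.6% to 98.4% identical in pairs, and Tubb2a and Tubb2b were 96.5% identical. Tubb3 was closest to Tubb6, at 86.3%. Of all stretches of 50 bases in the transcripts of a member, 75.5% occurred in the transcripts of another gene for Tuba1a, 75.1% for Tuba1b, 52.7% for Tuba1c, 49.6% for Tubb2a and 36.9% for Tubb2b. The figure was 0.184% for Tubb4a, 0.0892% for Tubb5 and 0 for Tubb3 and Tubb6. For Tuba4a it was 35.4%, nearly all of it shared with Stk16, a kinase gene that overlaps it on the opposite strand. Gm49450, a protein-coding gene that overlaps Tuba1a and Tuba1b on the same strand, shares 38.4% and 33.6% of their stretches. How reads that map to several places or to overlapping genes were counted was not given in the sources used here. The split among Tuba1a, Tuba1b and Tuba1c, and between Tubb2a and Tubb2b, is therefore uncertain. So are the levels of these genes and of Tuba4a, and the pool sums and shares below that include them. Gm20388, a protein-coding gene, overlaps Tubb3 on the same strand but shares none of its stretches. By the shared stretches of the GENCODE M21 transcripts, the levels of Tubb3, Tubb4a, Tubb5 and Tubb6 are hardly touched by this limit. The reads were counted on the GENCODE vM15 annotation, in which overlaps were not examined.

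Depth ran from 10368240 to 37287489 counts in a library. Levels are given as TMM-scaled RPKM, that is, counts divided by gene length and by the TMM-scaled size of the library, because 1 noncoding RNA of 57 bases (Gm23935) took from 8.17% to 68.1% of the TPM sum across libraries and made TPM uneven within groups. The defining markers matched the labels in summed level, and none of the 7 SGN, 8 hair cell and 7 glia markers was at 0 in all libraries of its own group. The SGN markers summed to between 560.0 and 3575 RPKM in SGN libraries and to between 61.6 and 75.0 in HCs. In glia the sum was 44.8 and 27.6 in replicates 2 and 3 and 239.2 in replicate 1, so the log2 differences of isotypes from glia are also given without replicate 1. Shares in glia are given without it only for Tubb5 and Tubb3. The comparisons of other gene lists with glia, below, include replicate 1 throughout. The glia markers summed to between 621.9 and 1051 in P8 SGNs, against at most 427.2 in SGNs of the other ages and at least 6344 in glia. Connective tissue markers reached 70.7 RPKM in P1 replicate 1 and 108.8 in P8 replicate 1, against at most 4.39 and 13.9 in the other libraries of these ages, and endothelial markers reached 36.4 in P1 replicate 1. No isotype call was lost without P1 replicate 1, and the only call lost without P8 replicate 1 was that of Tubb2b from P8 to P14. Blood markers summed to 114.7 RPKM in E15.5 replicate 1 and to 0 in E15.5 replicates 2 and 3. Without E15.5 replicate 1 the calls of Tubb2a from E15.5 to P1 and of Tuba1b and Tubb6 from E15.5 to P30 were lost. The part of blood RNA in these calls was not tested. In bulk samples, fewer cells of a type and less RNA per cell cannot be told apart. Nothing in the labels says that replicates came from separate animals, so p-values measure only the spread between these libraries.

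**Figure D1:**
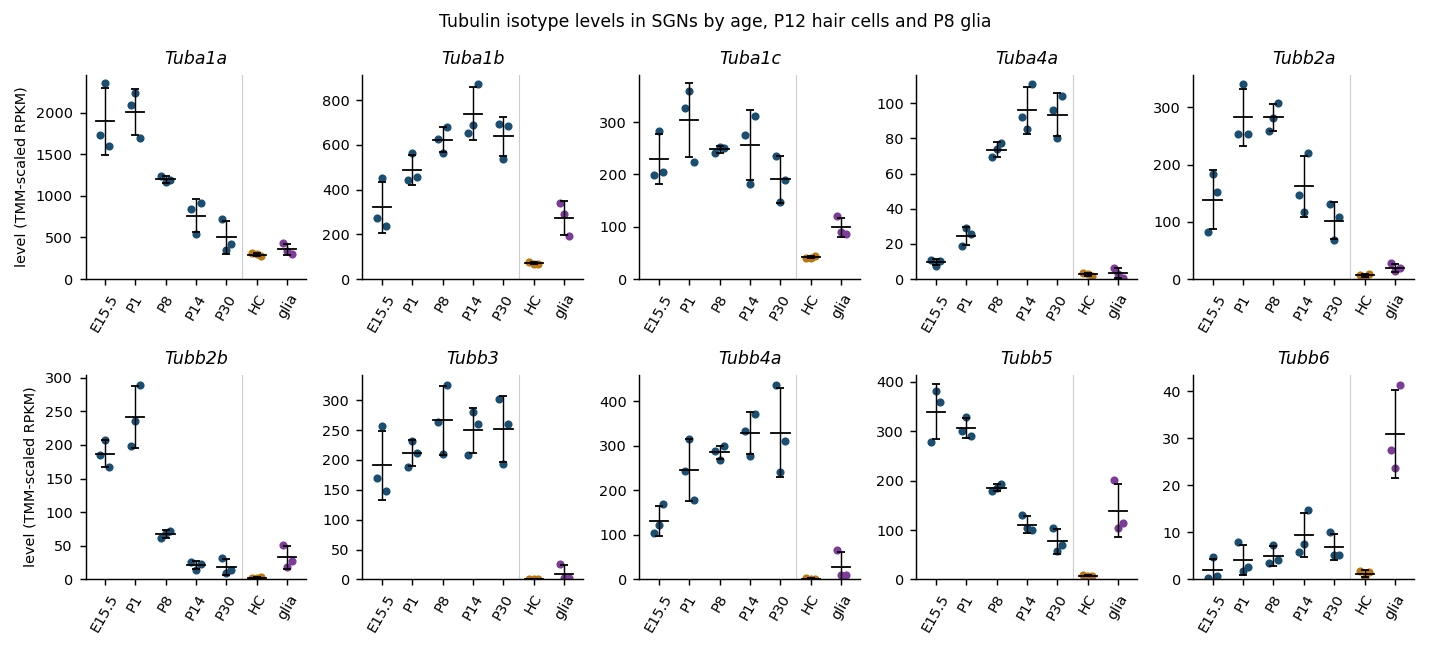
Level of each of the 10 isotypes (vertical axis, TMM-scaled RPKM, starting at 0) in SGNs at 5 ages, in P12 hair cells and in P8 glia. Points are the 3 libraries of a group, and the horizontal bar and whiskers are their mean and SD. Tuba1a, Tubb2b and Tubb5 are lower at P30 than at E15.5 and P1, Tuba4a is higher from P8 on than before, Tubb3 overlaps between ages, and Tubb6 is highest in glia.

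Over the whole span from E15.5 to P30, 7 of the 10 isotypes changed. A change between ages was called at an adjusted p under 0.05 and a fold over 2, and 34.6% of the 15113 genes tested were called in either direction over this span, 18.4% higher and 16.2% lower at P30. Tuba1a, Tubb2b and Tubb5 fell. Tuba1b, Tuba4a, Tubb4a and Tubb6 rose. Tuba1c, Tubb2a and Tubb3 did not pass. The median log2 fold change of the 10 was 0.04, against -0.01 for all genes tested. Scaling by library size alone, which moved the median of all genes to -0.49, left 4 calls, and Tuba1b (0.53), Tubb4a (0.81) and Tubb6 (2.00, adjusted p = 0.0778) lost theirs without a change of sign.

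Among the alpha isotypes, Tuba1a was the most abundant at E15.5, with 1732, 2353 and 1596 RPKM in the 3 libraries. It stood at 2093, 2233 and 1691 at P1, at 1242, 1166 and 1187 at P8, at 838, 539 and 909 at P14, and at 727, 352 and 427 at P30. The ranges of E15.5 and P1 overlapped, all P8 libraries lay below both and above every P14 library, and P14 overlapped with P30. From E15.5 to P30 it fell by 1.97 on the log2 scale (SE 0.23, adjusted p = 6.42e-06, limma voom). None of the single steps reached a 2-fold change. The largest of them was from P1 to P8, with a log2 fold change of -0.74 (adjusted p = 0.0235).

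Tuba1b, its close copy in sequence, went the other way. Its levels were 273, 450 and 237 RPKM at E15.5, 444, 563 and 456 at P1, 626, 565 and 680 at P8, 653, 690 and 874 at P14, and 694, 539 and 684 at P30. Each P30 library was above every E15.5 library, while E15.5 overlapped with P1 by a single library. The log2 fold change from E15.5 to P30 was 1.01 (SE 0.19, adjusted p = 0.000676). The fold lay at the edge of the 2-fold threshold. Without E15.5 replicate 1, E15.5 replicate 3, P30 replicate 1 or P30 replicate 3 it ranged from 0.80 to 0.96, no longer past 2-fold, with adjusted p of at most 0.00692. It was also under 2-fold with DESeq2 (0.93) and edgeR's quasi-likelihood test (0.96). The same held for RLE normalization (0.97), a minimum of 10 CPM (0.90), sample quality weights (0.99) and library size alone (0.53).

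Tuba4a had the largest called rise of the 4 alpha members. It began at 11.005, 7.63 and 10.2 RPKM at E15.5 and reached 18.7, 29.2 and 25.7 at P1, 69.4, 74.1 and 77.6 at P8, 92.2, 85.1 and 111 at P14, and 96.3, 80.0 and 104 at P30. No library of E15.5, P1 or P8 overlapped with a library of the next age, and P14 and P30 did. The log2 fold change was 1.34 (SE 0.25, adjusted p = 0.00384) from E15.5 to P1, 1.63 (SE 0.18, adjusted p = 3.28e-05) from P1 to P8, and 3.27 (SE 0.24, adjusted p = 3.90e-08) over the whole span. Stk16, which shares bases with it, averaged between 4.76 and 8.05 RPKM in the 5 SGN ages, with a log2 fold change of 0.70 from E15.5 to P30 (adjusted p = 0.0298) that did not reach 2-fold.

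Tuba1c showed no called change at any step. Its group means ran from 190 ± 44.8 RPKM at P30 to 303 ± 70.7 at P1 (SD, n = 3), and every neighbouring pair of ages in the order of levels overlapped. From E15.5 to P30 its log2 fold change was -0.30, with a 95% interval from -0.79 to 0.19 (adjusted p = 0.313).

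The counter-movement of Tuba1a and Tuba1b changed the make-up of the alpha pool, taken as the summed RPKM of the 8 alpha-tubulin genes in the table. These shares do not depend on how libraries were scaled, but they do depend on how reads common to near-identical genes were assigned. Tuba1a made up 77.3% ± 1.18 of the pool in E15.5 SGNs (SD, n = 3). It made up 70.9% ± 1.35 in P1, 55.4% ± 1.71 in P8, 40.4% ± 4.49 in P14 and 34.1% ± 6.03 in P30 SGNs. Tuba1b went from 12.8% ± 1.55 through 17.3% ± 1.81, 28.8% ± 1.69 and 39.98% ± 5.53 to 45.0% ± 5.06. Tuba1a led Tuba1b in all libraries of E15.5, P1 and P8, in replicates 1 and 3 of P14 and in replicate 1 of P30. Tuba1c held between 9.39% and 13.6% in the mean at every age, and Tuba4a went from 0.413% ± 0.144 to 6.61% ± 1.03.

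Among the beta isotypes, Tubb2b had the largest fall. It was at 186, 207 and 167 RPKM in the E15.5 libraries and at 198, 236 and 290 at P1. It then stood at 61.5, 69.1 and 71.9 at P8, at 25.3, 14.4 and 23.6 at P14, and at 31.2, 8.92 and 13.3 at P30. Every P8 library lay below every earlier one and above every later one, whereas P14 and P30 overlapped. The fall was called from P1 to P8, with a log2 fold change of -1.81 (SE 0.23, adjusted p = 0.000101), and over the whole span, with -3.51 (SE 0.33, adjusted p = 5.08e-07), or -4.13 without P30 replicate 1. From P8 to P14 the log2 fold change was -1.70 (SE 0.32, adjusted p = 0.0219). That call was lost when P8 replicate 1, 2 or 3 or P14 replicate 2 or 3 was left out, with adjusted p from 0.0571 to 0.100 and log2 fold changes from -1.78 to -1.45. It was also lost with edgeR's quasi-likelihood test (-1.66, adjusted p = 0.0674) and without a filter on low counts (-1.72, adjusted p = 0.0801).

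Tubb5, a broadly expressed beta isotype, was the most abundant beta isotype at E15.5. Its libraries were at 277, 382 and 360 RPKM at E15.5, 301, 330 and 291 at P1, 179, 186 and 193 at P8, 130, 103 and 99.6 at P14, and 105, 56.9 and 68.9 at P30. No P8 library overlapped with P1 or with P14. It fell by 2.19 on the log2 scale from E15.5 to P30 (SE 0.19, adjusted p = 2.05e-07), and no single step passed the 2-fold threshold. From P1 to P8 the log2 fold change was -0.72 (adjusted p = 0.00766). The 3 proliferation markers (Mki67, Top2a and Cdk1) summed to 2.87 to 8.45 RPKM in E15.5 libraries and to 0.380 to 0.856 at P30, with 17.2 in P1 replicate 1 and 0.649 and 0.722 in the other P1 libraries. Their part in the fall of Tubb5 was not tested.

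Tubb4a rose. It was at 105, 121 and 169 RPKM at E15.5, 244, 316 and 177 at P1, 287, 268 and 299 at P8, 334, 278 and 371 at P14, and 437, 240 and 310 at P30. All libraries from P1 onward were above all libraries of E15.5, and each later pair of ages overlapped. The log2 fold change was 0.88 from E15.5 to P1 (SE 0.25, adjusted p = 0.0317), short of 2-fold, and 1.28 from E15.5 to P30 (SE 0.24, adjusted p = 0.000604). Without E15.5 replicate 3 or P1 replicate 3 the first step passed the threshold, with log2 fold changes of 1.08 and 1.04.

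Tubb3 was high at every age and had no called change. Its libraries were at 170, 257 and 147 RPKM at E15.5, 189, 232 and 212 at P1, 263, 210 and 326 at P8, 208, 281 and 260 at P14, and 303, 193 and 261 at P30. Every pair of neighbouring ages overlapped. The log2 fold change from E15.5 to P30 was 0.39, with a 95% interval from -0.08 to 0.85 (adjusted p = 0.166), and with library size alone the sign turned, at -0.090 (adjusted p = 0.729).

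Tubb2a was higher at P1 and P8 than before or after. It stood at 81.4, 183 and 152 RPKM at E15.5, 254, 340 and 253 at P1, 259, 282 and 307 at P8, 148, 117 and 221 at P14, and 131, 68.1 and 108 at P30. All P1 and P8 libraries lay above those of the other 3 ages. The rise from E15.5 to P1 had a log2 fold change of 1.05 (SE 0.27, adjusted p = 0.0197). The call was lost without E15.5 replicate 1 (log2 fold change 0.74, adjusted p = 0.0779) and without P1 replicate 2 (0.87, adjusted p = 0.0897). DESeq2 gave 0.98 (adjusted p = 0.0133), just under 2-fold. The descent after P8 was spread over 2 steps, with log2 fold changes of -0.85 (adjusted p = 0.148) and -0.66 (adjusted p = 0.716), neither of which passed. From E15.5 to P30 the log2 fold change was -0.45, with a 95% interval from -1.08 to 0.18 (adjusted p = 0.239).

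Tubb6 was the least abundant member at every SGN age. It read 0.379, 4.68 and 0.715 RPKM at E15.5, with as few as 10 counts in a library. It read 7.87, 1.87 and 2.61 at P1, 3.40, 7.37 and 4.17 at P8, 5.90, 7.48 and 14.7 at P14, and 9.97, 5.25 and 5.24 at P30. The log2 fold change of 2.51 (SE 0.89, adjusted p = 0.0328) was called, but without E15.5 replicate 1, E15.5 replicate 3 or P30 replicate 1 the adjusted p ranged from 0.105 to 0.129, with log2 fold changes from 1.85 to 2.11. Without E15.5 replicate 2 the log2 fold change was 3.58. The edgeR quasi-likelihood test gave 1.79 (adjusted p = 0.0885). All P30 libraries were above all E15.5 libraries, but E15.5 replicate 2 lay close below them. Connective tissue markers summed to between 4.15 and 21.1 RPKM at E15.5 and to between 0.173 and 16.4 at P30, and glia markers to between 49.5 and 117 and to between 7.98 and 187. Their part in this value was not tested.

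In the beta pool, summed over 8 genes, Tubb5 held 33.7% ± 1.55 at E15.5 and 8.41% ± 0.739 at P30 (SD, n = 3), and Tubb2b 18.8% ± 3.11 and 1.84% ± 0.769. Tubb4a held 13.2% ± 3.24 at E15.5 and 36.1% ± 1.83 at P30. Tubb3 held 18.9% ± 3.86 and 28.0% ± 1.38, and Tubb2a peaked at 23.8% ± 1.65 at P8. Tubb4b, which is no member but is a broadly expressed beta isotype, went from 1.93% ± 0.363 to 13.8% ± 2.12. The lowest share of Tubb4a at P30 (34.5%) was above its highest share at E15.5 (16.7%), and the highest share of Tubb5 at P30 (9.14%) was below its lowest share at E15.5 (32.3%).

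All calls of isotypes at single steps fell between E15.5 and P14, and the share of all genes called also shrank from each step to the next. From E15.5 to P1, 2 isotypes rose (Tuba4a and Tubb2a) and none fell, where 8.26% of all genes tested were called, 5.08% higher and 3.18% lower. From P1 to P8, Tuba4a rose and Tubb2b fell, against 7.44% of all genes, 4.29% higher and 3.15% lower. From P8 to P14, Tubb2b fell, against 0.536% of all genes, 0.251% higher and 0.285% lower. From P14 to P30 no isotype was called by limma voom, edgeR's quasi-likelihood test or DESeq2, where 0.0596% of all genes were called by limma voom, 0.0331% higher and 0.0265% lower. At an unadjusted p under 0.05 from P14 to P30 there were 3 isotypes, all lower at P30: Tuba1a, Tubb2a and Tubb5. Their log2 fold changes at that step were -0.64, -0.66 and -0.59, against -0.68, -0.85 and -0.73 from P8 to P14.

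**Figure D2:**
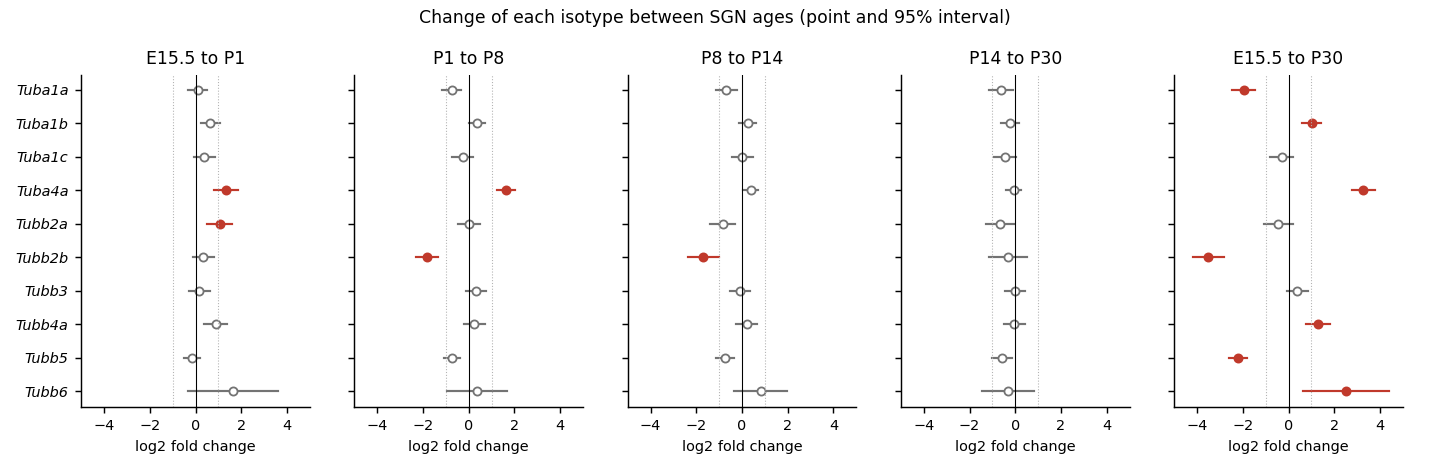
Log2 fold change of each isotype (horizontal axis) for the 4 steps between SGN ages and for E15.5 to P30. Points are estimates and lines 95% intervals from limma voom, filled red points passed an adjusted p of 0.05 and 2-fold, and dotted lines mark 2-fold. The wide interval of Tubb6 and the opposite signs of Tuba1a and Tuba1b over the whole span can be seen.

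Comparison with HCs asked which isotypes distinguish the neurons from the sensory cells of the inner ear. The HC libraries also held vestibular hair cells, which SGNs do not contact. A difference between cell types was called at an adjusted p under 0.01 and a fold over 4. Of the 10 isotypes, 9 were higher in P14 SGNs than in P12 HCs and none was lower, where 10.9% of the 17531 genes tested were higher, 12.2% were lower and 23.1% were called either way. The median log2 difference was 3.63 for the isotypes and -0.04 for all genes. Only Tuba1a did not pass, at 1.34 (SE 0.27, adjusted p = 0.000369), because its fold was under 4. With library size alone Tuba1c (1.83), Tubb2b (2.30) and Tubb6 (2.34) also did not pass.

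Tubb3 had the widest gap. HC libraries held 12, 8 and 0 counts of it, or 0.379, 0.183 and 0 RPKM, against 208, 281 and 260 RPKM in P14 SGNs. The fitted log2 difference was 11.39 (95% interval 8.47 to 14.30, adjusted p = 1.59e-06), a size that depends on the small value added before the logarithm because 1 HC library had no count, and it was 9.82 without HC replicate 3 and 12.42 without HC replicate 1. Tubb4a was at 3.87, 1.33 and 0.612 RPKM in HCs and at 334, 278 and 371 in P14 SGNs, a log2 difference of 7.87 (95% interval 5.69 to 10.04, adjusted p = 4.04e-06) that was 7.24 without HC replicate 3 and 8.51 without HC replicate 1. Tuba4a was at 3.54, 2.75 and 1.92 RPKM in HCs, with a log2 difference of 5.19 (SE 0.44, adjusted p = 1.70e-08). For these genes every HC library was far below every P14 library.

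The remaining isotypes were also lower in HCs. Tuba1b was at 74.9, 67.9 and 66.8 RPKM there and Tuba1c at 40.9, 41.2 and 44.7, with log2 differences of 3.38 (adjusted p = 6.29e-09) and 2.55 (adjusted p = 7.02e-07). Every HC library was below every SGN library of any age for both. Tubb2a averaged 6.29 ± 2.53 RPKM, Tubb2b 2.55 ± 0.941, Tubb5 7.70 ± 1.22 and Tubb6 1.23 ± 0.746 (SD, n = 3). Their log2 differences from P14 SGNs were 4.72, 3.03, 3.88 and 3.04. The call for Tubb6 (adjusted p = 0.00534) was lost without P14 replicate 2 or 3 or without any single HC library, with adjusted p from 0.0106 to 0.0414. Hair cell markers summed to 361 RPKM in P14 replicate 1, to 105 and 39.2 in replicates 2 and 3, and to between 1576 and 1743 in HCs. The part of such RNA in these differences was not tested.

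The beta-tubulin RNA that HCs did contain was mostly that of Tubb4b. In the beta pool of HCs, Tubb4b made up 85.3% ± 3.02 and no member held more than 5.68% in the mean. Tuba1a stood at 315, 295 and 273 RPKM, below all SGN libraries, and made up 70.2% ± 1.10 of the HC alpha pool. Tuba1b made up 16.7% ± 0.333 of it. These alpha shares were close to those of P1 SGNs, at 70.9% ± 1.35 and 17.3% ± 1.81. Tubb4b was at 118, 115 and 113 RPKM in HCs and at 162, 109 and 118 in P14 SGNs, and the log2 difference was 0.17 with a 95% interval from -0.37 to 0.71 (adjusted p = 0.628). The summed beta pool was 135 ± 6.34 RPKM in HCs and 1010 ± 99.5 in P14 SGNs, and the alpha pool 419 ± 24.3 and 1868 ± 360.3.

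The comparison with glia was made at P8 in both cell types. Tuba4a, Tubb2a, Tubb3 and Tubb4a were higher in SGNs and Tubb6 was lower, so 5 of the 10 were called, where 20.9% of all genes were called, 13.4% higher in SGNs and 7.53% lower. The log2 differences of the others were 1.71 (Tuba1a), 1.16 (Tuba1b), 1.30 (Tuba1c), 1.06 (Tubb2b) and 0.39 (Tubb5), all under 4-fold. The median log2 difference was 1.501 for the isotypes and 0.22 for all genes. Hair cell markers summed to between 185 and 331 RPKM in P8 SGNs. In glia they summed to 333 in replicate 1 and to 78.2 and 109 in replicates 2 and 3. Glia markers in P8 SGNs, given above, were the highest of the SGN ages. The part of such RNA in these differences was not tested.

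Tubb3 read 25.8, 1.58 and 1.65 RPKM in the 3 glia libraries and 263, 210 and 326 in P8 SGNs. Replicate 1, which had the highest SGN marker sum of the 3, was far above the others and still below every SGN library. The log2 difference was 5.65 (SE 0.83, adjusted p = 1.97e-05) with that library and 7.32 (adjusted p = 8.69e-05) without it, and it was as low as 4.88 without glia replicate 2. Tubb4a behaved alike, at 66.0, 9.04 and 10.6 RPKM in glia, with log2 differences of 3.66 (adjusted p = 1.93e-05) and, without replicate 1, of 4.87 (adjusted p = 3.60e-05). Tuba4a was at 6.46, 2.82 and 0.624 RPKM and differed by 4.80 (adjusted p = 8.23e-07), or by 5.75 without replicate 1 and by 4.001 without replicate 3. Tubb2a was at 27.6, 13.5 and 19.1 RPKM and differed by 3.78 (adjusted p = 2.26e-06), or by 4.14.

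Tubb6 was the single member whose mean was highest in glia. It was at 27.5, 23.7 and 41.4 RPKM there and at 3.40, 7.37 and 4.17 in P8 SGNs, and no glia library overlapped with a library of another group. The log2 difference was -2.65 (SE 0.52, adjusted p = 0.000354) and -2.71 (adjusted p = 0.00077) without glia replicate 1. With edgeR's quasi-likelihood test the call was lost, at -2.64 (adjusted p = 0.0153).

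Tubb5 did not pass in either direction. Glia read 201, 104 and 114 RPKM and P8 SGNs 179, 186 and 193, with a log2 difference of 0.39 (95% interval -0.03 to 0.82, adjusted p = 0.130). Without glia replicate 1 it was 0.78 (adjusted p = 0.00718), still under 4-fold. It was the leading beta isotype of glia, with 44.9% ± 8.50 of the pool, or 46.1% in the mean of replicates 2 and 3, where Tubb3 held 0.689%. Tubb6 held 10.7% ± 4.27 of the glial beta pool, against 0.427% ± 0.210 in P8 SGNs. The 3 proliferation markers summed to 146, 61.0 and 24.8 RPKM in the glia libraries and to between 0.822 and 1.65 in P8 SGNs, and their part in these shares was not tested. In the alpha pool of glia, Tuba1a held 49.1% ± 2.77 and Tuba1b 36.8% ± 3.66.

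HCs and glia were also set against each other. Of the 10 isotypes, 5 were lower in HCs (Tubb2b, Tubb3, Tubb4a, Tubb5 and Tubb6) and none was higher, where 24.4% of all genes were called, 16.2% higher in HCs and 8.18% lower. Tubb5 differed by -4.22 (SE 0.41, adjusted p = 1.20e-07) and Tubb6 by -4.87 (SE 0.79, adjusted p = 4.68e-05, or -4.19 without HC replicate 2) on the log2 scale. Tubb2b differed by -3.67. Without glia replicate 1 the calls of Tubb5, Tubb6 and Tubb2b were kept, at -3.83, -4.93 and -3.14. The calls for Tubb3 (-5.81, adjusted p = 0.00595) and Tubb4a (-4.01, adjusted p = 0.00755) were lost without glia replicate 1, at -4.16 (adjusted p = 0.0614) and -2.82 (adjusted p = 0.0489). Leaving out HC replicate 2 or 3 also ended both calls, and leaving out HC replicate 1 ended that of Tubb4a. The value of Tubb3 ranged from -6.83 to -4.16 over single omissions.

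**Figure D3:**
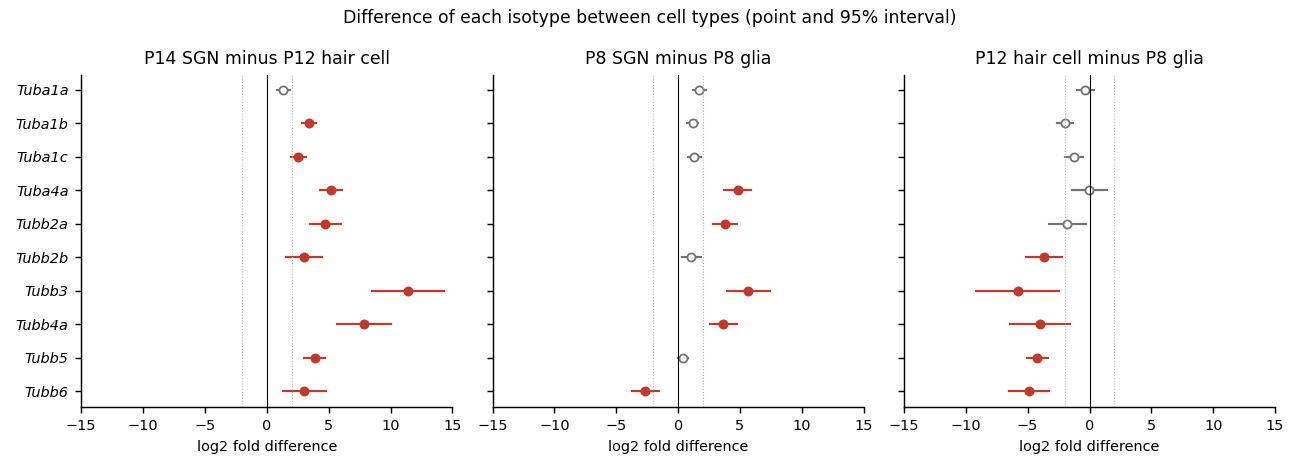
Log2 difference of each isotype (horizontal axis) between P14 SGNs and P12 HCs, between P8 SGNs and P8 glia, and between P12 HCs and P8 glia. Points are estimates and lines 95% intervals from limma voom, filled red points passed an adjusted p of 0.01 and 4-fold, and dotted lines mark 4-fold. All isotypes lie on the SGN side of the HC comparison, and Tubb6 alone lies on the glial side of the SGN and glia comparison.

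Members differed in how they varied together. Over the 15 SGN libraries, Pearson's r of log2(RPKM + 1) was 0.97 between Tubb5 and Tubb2b, 0.97 between Tubb5 and Tuba1a, and 0.96 between Tuba1a and Tubb2b, the 3 that fell. Between Tuba4a and these it was -0.84 (Tubb5), -0.82 (Tubb2b) and -0.77 (Tuba1a). Tuba4a had r of 0.86 with Tuba1b and with Tubb4a, and Tubb3 had 0.56 with Tubb4a. These values describe libraries that share ages and scaling, and carry no test.

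For each member, the 2 genes with the most similar profile over all 21 libraries were found by Pearson's r of log2(TPM + 1) among 17530 other genes. For Tubb3 they were Stac2 (0.99), which encodes an adaptor of calcium channels, and Ppp1r1c (0.99). For Tubb4a they were Gng3 (0.98), a G protein gamma subunit of neurons, and Stac2 (0.98). For Tuba4a they were Snap25 (0.98), which is also 1 of the SGN markers used here, and Napb (0.98), both of the machinery of vesicle fusion. For Tubb2a they were Cpne4 (0.97) and Prmt8 (0.96). For Tubb2b they were Tmsb10 (0.98), an actin-sequestering thymosin, and Gm11223 (0.96), and for Tubb5 they were Adam19 (0.96) and Dpysl3 (0.95), the latter a collapsin response mediator. Tubb6 had the weakest likeness, to Mcam (0.84) and Rtkn (0.83). Tuba1b was closest to Hint1 (0.97) and AI854703 (0.97). Tuba1a was closest to Gm17383 (0.96) and Gm3226 (0.96), and Tuba1c to Gm5620 (0.97) and Mtch1 (0.96). Gm17383 shares 46.6% of the 50-base stretches of Tuba1a, Gm3226 shares 40.8% of them, and Gm5620 shares 22.7% of those of Tuba1c, so these likenesses may be of the same reads. On the RPKM scale the same pairs had r between 0.87 and 0.99. There AI854703 had 0.87 with Tuba1b, and for Tubb5 Dpysl3 (0.95) came before Adam19 (0.92). The 2 genes of each member were chosen by TPM, whose sums were uneven, and other genes may lie closer on the RPKM scale.

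The other tubulin genes were followed as a list of 10, of which 6 were tested. From E15.5 to P30, 4 rose and none fell, where 18.4% of all genes rose and 16.2% fell, and the median log2 fold change was 1.82, against -0.01 for all genes. The largest rises were of Tubd1, the delta-tubulin of centrioles (4.21, adjusted p = 0.00733, from 1 to 17 counts a library at E15.5), and Tuba8, a further alpha isotype (3.82, adjusted p = 0.000582). Tubb4b, with 2.59 (SE 0.29, adjusted p = 3.98e-06), and Tubg2, a gamma-tubulin, with 1.05 (adjusted p = 0.0054), were the others. By step, Tuba8 rose from E15.5 to P1, Tuba8 and Tubb4b rose from P1 to P8, and none was called later. Against HCs, only Tubg2 was called, higher in P14 SGNs (2.77, adjusted p = 2.02e-05), where 10.9% of all genes were higher and 12.2% lower. The median was 1.17, against -0.04 for all genes. Against glia, Tubg2 (5.01, adjusted p = 4.53e-06) and Tuba8 (3.505, adjusted p = 0.000137) were higher in P8 SGNs and none was lower, against 13.4% and 7.53% of all genes. The median was 1.45, against 0.22 for all genes. Tuba8 and Tubg2 were higher and Tube1, the epsilon-tubulin, was lower in HCs than in glia.

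A list of 7 held the folding cofactors of the alpha and beta dimer together with Arl2 and the cofactor-like Tbcel, and all were tested. In SGNs, 3 rose from E15.5 to P30 and none fell, against 18.4% and 16.2% of all genes, with a median log2 fold change of 0.88. Tbca, which holds beta-tubulin on the folding path, had 1.53 (adjusted p = 0.000211), Arl2, a small GTPase of the same machinery, 1.46 (adjusted p = 0.000206) and Tbcel, a cofactor-like protein, 1.06 (adjusted p = 0.0101). Tbca rose from E15.5 to P1 and Tbcel from P1 to P8, and none was called at the later steps. Against HCs, Tbcb, a cofactor for alpha-tubulin (2.51, adjusted p = 3.02e-05), and Arl2 (2.02, adjusted p = 0.00142) were higher in P14 SGNs. None was lower, where 10.9% of all genes were higher and 12.2% lower, and the median of the list was 1.00. Against glia, Tbcb (2.42, adjusted p = 0.000149), Arl2 (2.27, adjusted p = 0.00798) and Tbcel (2.22, adjusted p = 0.00076) were higher in P8 SGNs. None was lower, where 13.4% of all genes were higher and 7.53% lower, and the median of the list was 1.86. None was called between HCs and glia.

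Of the 13 microtubule-associated proteins, all tested, 3 rose and 3 fell from E15.5 to P30, against 18.4% and 16.2% of all genes, with a median log2 fold change of 0.03. The largest rises were of Map1a (4.72, adjusted p = 1.45e-09), a protein of mature axons and dendrites, and Map7d2 (2.59, adjusted p = 7.03e-08), and Map2 was the other. The largest falls were of Dcx, or doublecortin, a protein of migrating and immature neurons (-5.71, adjusted p = 8.07e-10), and its relative Dclk1 (-1.73, adjusted p = 5.85e-06), and Mapt, which encodes tau, was the other (-1.46, adjusted p = 3.27e-06). By step, Map1a rose from E15.5 to P1, Map1a rose and Dcx and Mapt fell from P1 to P8, Dcx and Dclk1 fell from P8 to P14, and none was called from P14 to P30. Against HCs, 10 were higher in P14 SGNs and 2 were lower, against 10.9% and 12.2% of all genes, with a median of 3.08. The largest gaps were of Dcx (7.92, adjusted p = 0.000156), which had 0 to 6 counts in HC libraries, and Map1a (6.998, adjusted p = 1.60e-08), and the lower ones were Map7 (-2.74, adjusted p = 0.00347) and Map9 (-2.39, adjusted p = 7.72e-08). Against glia 8 were higher in P8 SGNs and none was lower, against 13.4% and 7.53% of all genes, with a median of 2.57. Dcx led them (6.67, adjusted p = 0.000268), with 0 to 665 counts in glia libraries, before Map7d2 (4.98, adjusted p = 1.28e-06). In HCs Map7 and Map9 were higher and Map4, Map6 and Map7d1 lower than in glia.

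The stathmins, which bind free tubulin dimers, were 4 in number and all tested. From E15.5 to P30 Stmn1 (-4.59, adjusted p = 1.20e-07) and Stmn4 (-2.67, adjusted p = 9.93e-08) fell and Stmn3 rose (1.53, adjusted p = 0.000146), with a median of -1.56, where 34.6% of all genes were called. Stmn1 and Stmn4 fell from P1 to P8, and no stathmin was called at the other single steps. All 4 were higher in P14 SGNs than in HCs, where 10.9% of all genes were higher. Stmn4 had no count in any HC library and 753 to 792 in P14 SGNs, so it was at least 284-fold higher at a floor of 3 counts a library. Stmn2 had 0 to 38 counts in HC libraries and a fitted log2 difference of 10.43 (adjusted p = 5.20e-07). The median of the 4 was 8.05 as fitted and 6.92 with Stmn4 at its bound. Against glia Stmn2, Stmn3 and Stmn4 were higher in P8 SGNs and none was lower, against 13.4% and 7.53% of all genes. They were led by Stmn4 (7.19, adjusted p = 1.52e-06, 0 to 58 counts in glia) and Stmn3 (5.22, adjusted p = 5.17e-06), with a median of 5.01 for the list. Stmn1, Stmn2 and Stmn4 were lower in HCs than in glia.

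The enzymes that modify tubulin formed a list of 17, of which 16 were tested. In SGNs, 4 rose from E15.5 to P30 and 6 fell, against 18.4% and 16.2% of all genes, with a median log2 fold change of 0.42. The largest falls were of Vash2 (-3.74, adjusted p = 0.000203) and Vash1 (-2.20, adjusted p = 0.00328), the vasohibins that cut off the last tyrosine of alpha-tubulin, and Ttll4, Atat1, Hdac6 and Agbl5 also fell. The largest rises were of Ttll5 (1.95, adjusted p = 3.34e-05) and Ttll7 (1.35, adjusted p = 0.000101), which add glutamates to the tails. Ttl, the tyrosine ligase (1.22, adjusted p = 0.00259), and Sirt2, a deacetylase (1.00, adjusted p = 0.00248), also rose. By step, Agbl4 rose from E15.5 to P1, Ttll7 rose and Atat1 and Vash2 fell from P1 to P8, and none was called later. Against HCs, Ttl was higher in P14 SGNs (2.403, adjusted p = 0.000694) and 4 were lower, against 10.9% and 12.2% of all genes, with a median of 0.49. These were Ttll3, a glycylase (-3.90, adjusted p = 1.11e-08), Ttll4 (-2.63, adjusted p = 4.79e-05), Agbl5 and Vash2. Against glia 6 were higher in P8 SGNs and 1 lower, against 13.4% and 7.53% of all genes, with a median of 0.44. Ttll11 (6.15, adjusted p = 1.67e-05) and Agbl4 (5.98, adjusted p = 1.08e-05) led, both with 0 counts in at least 1 glia library, and Ttll4 was lower (-2.71, adjusted p = 7.85e-06). In HCs Ttll3, Ttll7, Ttll11, Agbl4 and Vash2 were higher and Vash1 lower than in glia.

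Of the 16 severing and end-binding proteins, 15 were tested. From E15.5 to P30 Camsap3, a binder of microtubule minus ends, was the only one to pass (-1.11, adjusted p = 0.00328), where 34.6% of all genes were called. The median log2 fold change was -0.32, and none was called at any single step. Against HCs, only Mapre2, an end-binding protein, was called, higher in P14 SGNs (3.08, adjusted p = 1.98e-09), where 23.1% of all genes were called. The median of the list was -0.10. Against glia, only Fign, a severing enzyme, was called, lower in P8 SGNs (-2.65, adjusted p = 1.09e-06), where 20.9% of all genes were called. The median of the list was 0.28. Clasp2, which binds growing ends, was lower in HCs than in glia. All adjusted p-values on these lists are from limma voom over all genes tested. Where no share stands beside the genes called, the shares over all genes are those given above with the isotypes.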

How the data were processed

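RNA from labelled cells was amplified with a kit that primes with oligo-dT and random primers, and libraries were sequenced. Per the labels and methods, the authors mapped reads to mm10 with STAR 2.4.0i and counted them per gene with featureCounts on GENCODE vM15. The deposited table holds raw counts for 52550 genes with gene lengths. Of values from 1 to 20, between 64.3% and 75.0% were even, and whether mates were counted apart is not given in the sources used here. No sample column was left unused.

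Symbols came from Ensembl identifiers, and 147 genes had none. Counts were TMM-normalized (edgeR 4.0.16) and tested with limma voom 3.58.1 in R 4.3.3, with Benjamini-Hochberg adjustment, in 1 fit of 15 SGN libraries for ages and 1 of 21 libraries for cell types. A gene was tested where some group had more than 1 CPM in each of its replicates. The fits were tested on simulated data. Levels were planned as TPM, but TMM-scaled RPKM is shown, a choice made after the uneven TPM sums were seen. Positions, coding sequences and shared 50-base stretches came from GENCODE M21 on GRCm38, the assembly of mm10. Alternatives were other scalings, filters, tests (DESeq2 1.42.0 among them), a replicate block and leaving out each library. The named genes were all members, their 2 most similar genes, and the 2 largest called changes each way of 6 lists. Other genes of the lists named as called were added after their values were seen. Matcap1 was not matched in the table. The members and lists were chosen with earlier results of these data known. No 2 libraries were identical. The coding ends of the other 3 members are not reported here.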

Additional observations from a re-analysis of the deposited data

How the results depend on the processing

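Across the 10 isotypes, 20 of 31 calls in the 8 comparisons were kept in all alternatives run. With library size alone in place of TMM, the median log2 fold change of all genes moved to -0.49 from E15.5 to P30, -0.75 for P14 SGNs against HCs, -0.23 from P1 to P8 and 0.63 for HCs against glia. On that scale Tubb3 turned to -0.090 from E15.5 to P30 (adjusted p = 0.729), Tuba1b and Tubb4a stayed above 0 at 0.53 and 0.81, and higher against lower calls over all genes went from 2778 and 2446 to 1698 and 3973 for E15.5 to P30, from 767 and 481 to 569 and 649 for E15.5 to P1, from 648 and 476 to 421 and 760 for P1 to P8, from 38 and 43 to 19 and 54 for P8 to P14, from 1910 and 2136 to 1229 and 3325 for P14 SGNs against HCs and from 2838 and 1434 to 3573 and 1020 for HCs against glia. The count of isotypes called became 1 from E15.5 to P1 (library size alone, DESeq2 and sample quality weights), 0 from P8 to P14 (no filter, edgeR's quasi-likelihood test), 4 from E15.5 to P30 (library size alone) and 3 for HCs against glia (no filter, only the 2 groups compared). Smaller changes were to 5 (minimum of 10 CPM, edgeR's quasi-likelihood test, sample quality weights) or 6 (RLE, no filter, DESeq2) from E15.5 to P30, to 4 for P8 SGNs against glia (edgeR's quasi-likelihood test), and, with library size alone, to 6 for P14 SGNs against HCs and 4 for HCs against glia. The cause was not tested. Leaving out 1 library gave 1 to 3 isotypes called for E15.5 to P1, 2 for P1 to P8, 0 to 1 for P8 to P14, 0 for the step from P14 to P30, 5 to 7 for E15.5 to P30, 8 to 9 for P14 SGNs against HCs, 5 for P8 SGNs against glia and 3 to 6 for HCs against glia. Over the other settings the count of all genes called ranged from 552 to 1743 for E15.5 to P1, 649 to 1458 for P1 to P8, 34 to 219 for P8 to P14, 2 to 110 for the step from P14 to P30, 3825 to 5671 for E15.5 to P30, 2864 to 4952 for P14 SGNs against HCs, 1942 to 4133 for P8 SGNs against glia and 2226 to 4901 for HCs against glia, where the values reported were 1248, 1124, 81, 9, 5224, 4046, 3662 and 4272.

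With the replicate number as a block no call of an isotype changed (2, 2, 1, 0, 7, 9, 5 and 5 called in the same order), and calls over all genes went from 9 to 23 for P14 to P30 and from 81 to 146 for P8 to P14. Same-numbered deviations correlated from -0.15 to 0.37, and in no comparison did all 6 libraries lie closest to their own number. From P14 to P30, 5 of the 6 did, with r from 0.08 to 0.37. It was 3 of 6 from P1 to P8 and from P8 to P14, with r above 0, and 0 or 1 in the other comparisons. Whether libraries of the same number shared a batch was not tested. Of the group levels, as a percent of the highest group, 36 moved by more than their SD and 34 did not by TPM, 44 and 26 by TPM without mitochondrial genes and 33 and 37 by TPM without genes under 300 bases, and the highest group of Tubb3 was P1 by TPM, P14 without mitochondrial genes, E15.5 without genes under 300 bases (chosen after seeing the data) and P8 by RPKM. With a minimum of 10 CPM Tubb6 was not tested from E15.5 to P30. Tubb6 had as few as 10 counts in an E15.5 library, and Tubb3 had 0 to 12 in HC libraries.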
